A study of Mus musculus with 4 samples.

Results

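Immediate early genes were described in the gastrocnemius of mice, a muscle of the calf in which fast fibres prevail, on 4 MG-U74Av2 oligonucleotide arrays. The 9 genes were Zfp36, Nr4a1, Fos, Jun, Junb, Atf3, Egr1, Ier2 and Myc. They were taken as every probe set whose platform annotation named one of them as its only gene symbol, which gave 14 of 12422 probe sets, or 9 of 8251 genes. The groups were adrenalectomized mice, adrenalectomized mice 3 h after 0.1 mg of cortisol given into the peritoneum, adrenalectomized mice 24 h after the same dose, and intact mice. Each group was 1 pool of muscle from 10 mice and 1 array, and the labels gave 1 week after surgery for the uninjected adrenalectomized group alone. The labels named no strain, sex, age or time of day and no group injected with vehicle. No difference below has a replicate check or a test, and each sets 1 pool against another. The error SD quoted beside the log2 ratios was estimated from genes with more than 1 probe set and holds no variation between mice, pools or hybridizations.

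Immediate early genes are switched on within minutes of a stimulus, without new protein synthesis, mainly through serum response factor, its Ets partners and CREB below the MAP kinases. Most encode transcription factors, and their messages are short-lived. In skeletal muscle they respond to contraction, injury and handling of the tissue. Glucocorticoids act on this group both ways. The liganded receptor restrains the activity of Fos and Jun dimers, and it raises transcription of some members, among them Zfp36.

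Promoters of 6 of the 9 genes were read from RefSeq on GRCm38.p6. The 150 bases before the transcription start are shown for the 3 genes that were more than 1.5-fold higher at 3 h (Zfp36, Nr4a1 and Atf3) and for Fos and Jun, which were not. Capitals mark the motifs that were found.
Zfp36: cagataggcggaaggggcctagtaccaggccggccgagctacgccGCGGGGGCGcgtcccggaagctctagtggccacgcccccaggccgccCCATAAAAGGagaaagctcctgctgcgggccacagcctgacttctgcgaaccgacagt
Nr4a1: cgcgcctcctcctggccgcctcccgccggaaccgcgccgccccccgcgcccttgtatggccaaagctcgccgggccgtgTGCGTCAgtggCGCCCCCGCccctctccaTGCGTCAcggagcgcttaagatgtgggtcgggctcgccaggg
Atf3: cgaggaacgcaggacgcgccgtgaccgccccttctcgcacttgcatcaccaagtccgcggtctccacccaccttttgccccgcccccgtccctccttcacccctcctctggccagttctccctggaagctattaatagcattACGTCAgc
Fos: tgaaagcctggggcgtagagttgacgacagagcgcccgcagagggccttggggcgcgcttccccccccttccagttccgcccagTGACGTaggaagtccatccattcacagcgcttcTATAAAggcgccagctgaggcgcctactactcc
Jun: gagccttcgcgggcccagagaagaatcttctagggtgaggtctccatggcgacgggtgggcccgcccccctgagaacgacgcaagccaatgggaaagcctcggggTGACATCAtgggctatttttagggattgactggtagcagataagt

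The windows were chr7:28379229-28379378 (minus strand) for Zfp36, chr15:101266696-101266845 (plus) for Nr4a1 and chr1:191183334-191183483 (minus) for Atf3. Those of Fos and Jun were chr12:85473740-85473889 (plus) and chr4:95052223-95052372 (minus). The 250 bases before each start were searched on both strands for exact matches to each pattern. Sites farther from the start or with other letters would be missed, so a motif not found here may still lie elsewhere. The Egr-type motif GCGGGGGCG was found in Zfp36, 105 to 97 bases before the start, and on the other strand in Nr4a1, 60 to 52 bases before it, and 2.57% of the 32851 promoters in the RefSeq table hold it. The CArG box, to which serum response factor binds, was found in Zfp36, 58 to 49 bases before the start, and 1.47% of all promoters hold it. The motif TGACGCA, a variant of the CREB and AP-1 site, was found at 4 places in Nr4a1, 2 of them in the window shown, against 1.75% of all promoters with at least 1. The shorter motif TGACGT, which also lies within TGACGTCA, was found in Fos and, on the other strand, in Atf3, and 6.47% of all promoters hold it. TGACATCA, known as a Jun and ATF2 site of the Jun promoter, was found in Jun, 45 to 38 bases before the start, against 2.93% of all promoters. TATAAA was found in Fos and in 12.4% of all promoters. A consensus glucocorticoid response element, present in 0.387% of all promoters, was not among these letters in the 6 genes, and neither were GCGTGGGCG (0.536%), TGACTCA (4.46%) or the full TGACGTCA (1.55%). In Junb none of the searched motifs was found.

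The arrays carried muscle RNA, since 13 of 14 fast fibre markers reached the signal floor of 100 on each of the 4 arrays and the exception, Myh2, was below it on all 4. Markers of epidermis and hair stood highest at 3 h, with a summed signal of 2450.3 on the adrenalectomized array, 14072 at 3 h, 4467 at 24 h and 2235 on the intact array. Of the 21 such markers, 8, 15, 14 and 8 reached the floor in that order, while 6, among them Krt5, Krt14 and Krt15 of the basal layer, were below it throughout. Slow fibre markers summed to 82544, 30166, 28620.1 and 75145 in the same order, with all 10 of 10 above the floor on each array. Lymphocyte markers summed to 874, 1169, 1757 and 1052, with 3, 5, 5 and 4 of 8 above the floor. Hepatocyte markers summed to 2999, 1372, 982 and 4309, and 7, 5, 5 and 8 of 9 reached the floor. The arrays were run in 4 different fluidics modules, so module, pool and group cannot be told apart. In RNA of a whole muscle, fewer cells of a type and less RNA per cell cannot be told apart.

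Of the 14 probe sets, 8 reached the floor on all 4 arrays, 1 on the 3 h array only, and 5 on none. Each gene is given by its brightest probe set, and by that measure 8 genes were measured on every array and Myc on none. The sets used for Zfp36, Junb and Atf3 carry suffixes (s, r and f) that mark probes shared with similar transcripts, rules relaxed in probe choice, or a sequence family. Their signals may include other transcripts.

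**Figure D1:**
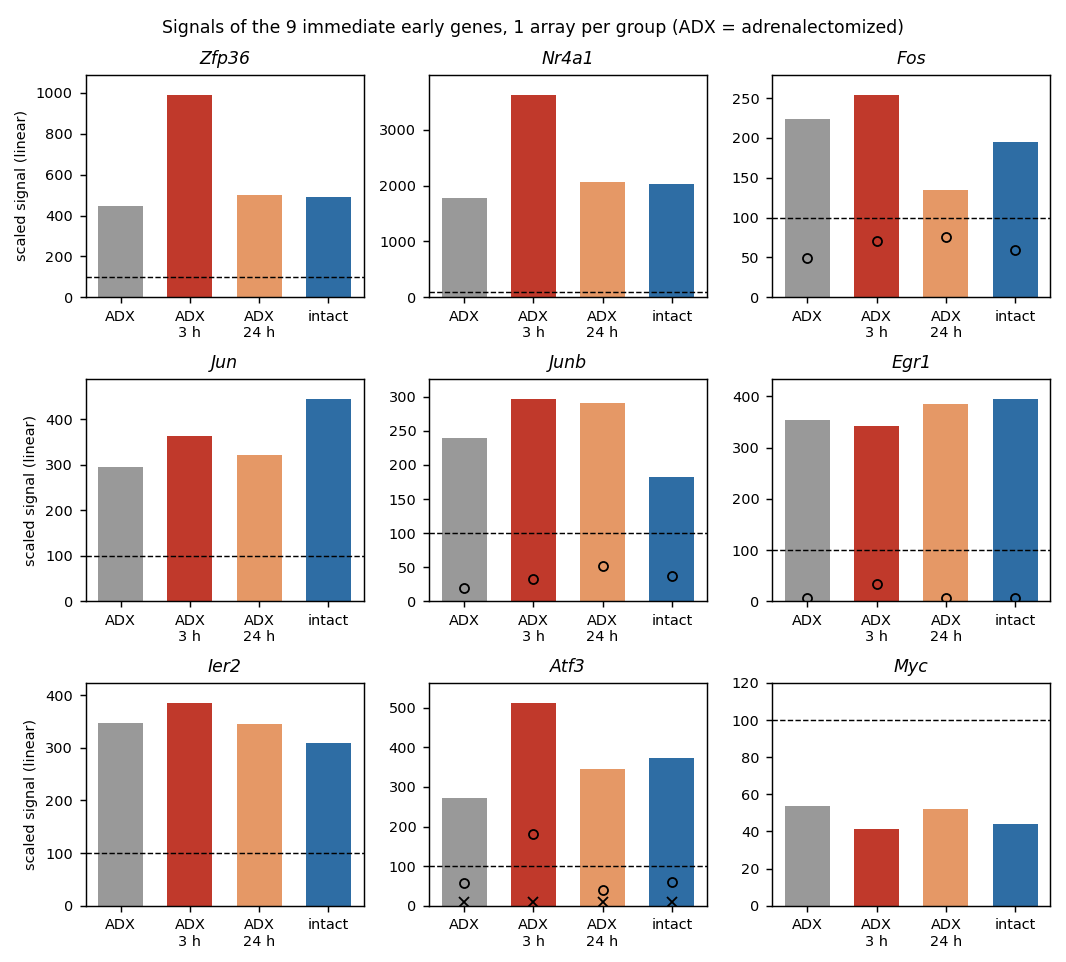
Scaled signal (linear axis from 0) of each gene on the adrenalectomized (ADX), 3 h, 24 h and intact arrays, 1 array per group, so there are no error bars. Bars show the brightest probe set, circles and crosses the other probe sets, and the dashed line the floor of 100. Zfp36, Nr4a1 and Atf3 stand highest at 3 h, Jun is highest in intact mice, and Myc lies below the floor throughout.

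The early response to the hormone was the question of the 3 h array set against the adrenalectomized array. Zfp36 and Nr4a1 were each about 2-fold higher at 3 h, and Atf3 was nearly so. Fos, Jun, Junb and Ier2 were slightly higher and Egr1 was level. The 8 measured genes thus split into 3 that differed by more than 3 times the error SD and 5 that differed by at most 1.11 times it.

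Zfp36 encodes a zinc finger protein, tristetraprolin, that binds AU-rich elements of cytokine and other messages and speeds their decay. On the scaled signal its level was 445 on the adrenalectomized array, 991 at 3 h, 499 at 24 h and 492 in intact mice. The 3 h array stood alone, and the other 3 arrays lay close together. The log2 ratio of 3 h to adrenalectomized was 1.16 (2.23-fold), or 4.13 times the error SD of 0.28 for that comparison, and 1.33% of the 6168 genes compared had a ratio at least as high.

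Nr4a1 encodes an orphan nuclear receptor that is induced in muscle by exercise and adrenergic signals. It read 1785 after adrenalectomy, 3628 at 3 h, 2067 at 24 h and 2022 in intact mice. It followed the same order of arrays as Zfp36, with 3 h apart from the rest. The 3 h ratio to adrenalectomized was 1.02 on the log2 scale (2.03-fold, 3.65 times the error SD), and 1.80% of genes were at least as high.

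Atf3 encodes a stress-induced factor of the ATF and CREB family that mostly represses transcription. Its brightest set read 273 after adrenalectomy, 512 at 3 h, 346 at 24 h and 374 in intact mice. The 3 h array was again the highest and the adrenalectomized array the lowest, with 24 h and intact between them. The 3 h log2 ratio to adrenalectomized was 0.91 (1.88-fold, 3.24 times the error SD), and 2.22% of genes were at least as high. A second Atf3 set read 57.1, 181, 39.4 and 60.7 in the same order, so it reached the floor at 3 h only and was at least 1.81-fold higher there than on the adrenalectomized array. This set entered only through the 3 h array, so its direction was set by the filter and adds no separate evidence. The third Atf3 set did not exceed 10.0 on any array.

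Fos and Jun pair through leucine zippers to form AP-1, and Junb is a less active relative of Jun. Fos read 223 after adrenalectomy, 254 at 3 h, 135 at 24 h and 196 in intact mice. It was lowest at 24 h, and the other 3 arrays were within a narrow range. Jun read 294, 363, 321 and 444 in that order, and Junb 239, 297, 291 and 182. Jun was highest and Junb lowest in intact mice. At 3 h the log2 ratios to adrenalectomized were 0.19 for Fos, 0.30 for Jun and 0.31 for Junb, from 0.67 to 1.11 times the error SD. The Fos ratio became -0.03 under scaling to the probe sets of ribosomal protein genes. The second sets of Fos and Junb stayed below the floor on all 4 arrays, with highest signals of 75.7 and 52.2, both at 24 h.

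Egr1, a zinc finger factor induced by serum and growth signals, read 353 after adrenalectomy, 342 at 3 h, 385 at 24 h and 395 in intact mice. Its values spanned 1.16-fold in all, and with the arrays ranked by level no step between neighbours exceeded the error SD. Its second set read 6.90, 33.8, 5.99 and 7.29, all below the floor, with the 3 h array highest. Ier2, a small nuclear protein gene of the early response, read 347, 385, 346 and 309 and spanned 1.25-fold. The 3 h ratios to adrenalectomized were -0.05 for Egr1 and 0.15 for Ier2, and that of Ier2 turned to -0.07 under ribosomal protein scaling. Myc, a growth-promoting transcription factor gene, read 53.7, 41.2, 51.8 and 44.2, so no ratio is given.

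In 3 h against adrenalectomized, 3 of the 8 measured genes were at least 1.5-fold higher and 0 lower, where 9.82% of all genes passed 1.5-fold, 5.07% being higher and 4.75% lower. At 2-fold it was 2 of 8, both higher, where 3.03% of all genes passed, 1.86% being higher and 1.17% lower. Of all genes past 2-fold, 61.5% were higher, and 37.3% were under ribosomal protein scaling, which moved the all-gene median from -0.02 to -0.23. The median log2 ratio of the 8 genes was 0.31, against -0.02 over all genes compared, and lay between 0.09 and 0.34 over all settings tried. The number past 1.5-fold was 3 in each setting, though Atf3 only just passed with the mean of its probe sets, at 0.59. At 2-fold none was left under ribosomal protein scaling, where Zfp36 had a ratio of 0.94 and Nr4a1 one of 0.80. The 3 higher genes were highest on the array where epidermis and hair markers were also highest and where slow fibre markers were low. The part of those markers in the result was not tested.

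**Figure D2:**
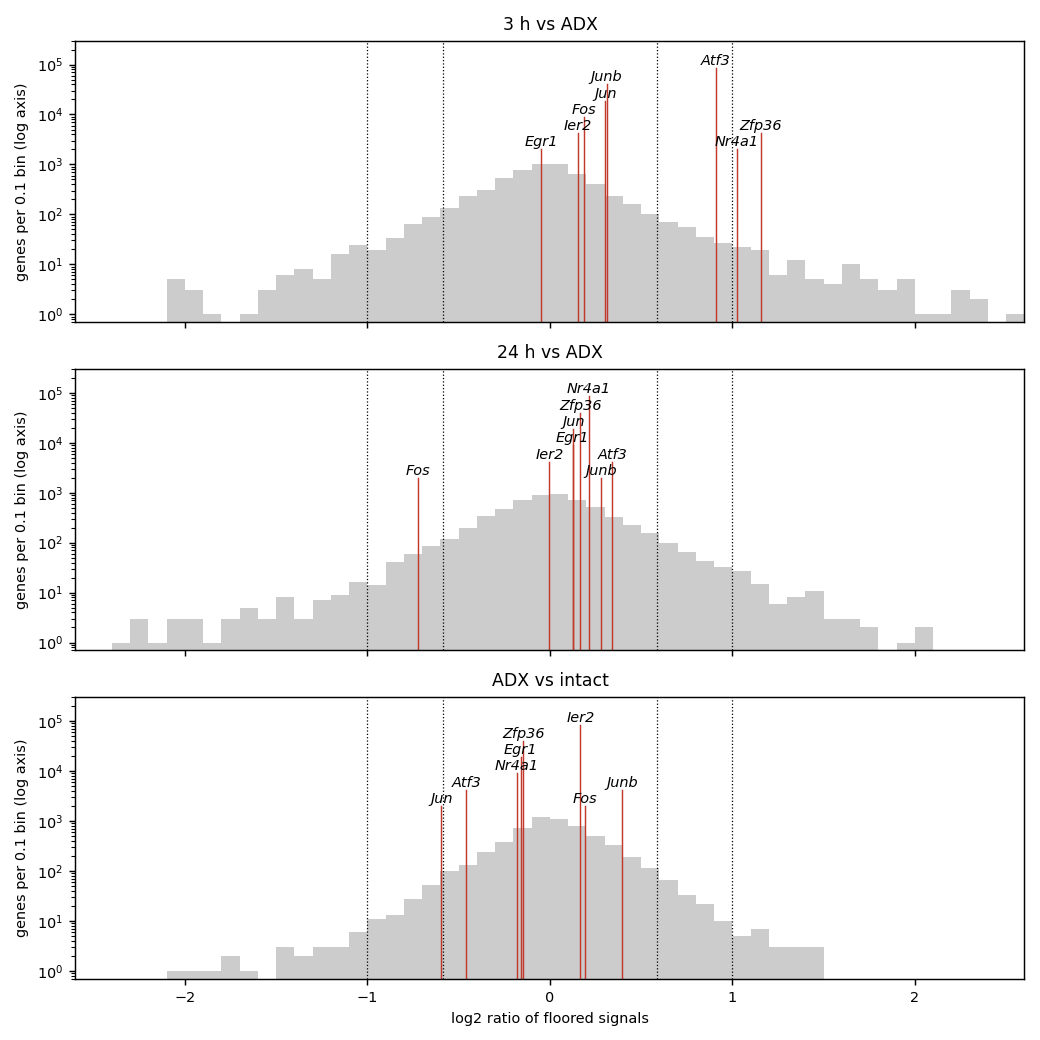
Number of genes per bin of log2 ratio (grey, log axis) for 3 h against adrenalectomized (ADX), 24 h against adrenalectomized and adrenalectomized against intact, with the 8 measured genes as labelled red lines and dotted lines at 1.5-fold and 2-fold; the most extreme genes lie beyond the axis. Zfp36, Nr4a1 and Atf3 lie to the right of the 1.5-fold line at 3 h, Fos to the left of it at 24 h, and Jun just past it in adrenalectomized against intact.

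At 24 h the 3 genes stood near their levels without cortisol, and Fos was lower than on any other array. The 24 h log2 ratios to adrenalectomized were 0.17 for Zfp36, 0.21 for Nr4a1 and 0.34 for Atf3, against an error SD of 0.32. Fos was 1.65-fold lower, a log2 ratio of -0.73 and 2.29 times the error SD, and 2.57% of genes were at least as low. With a floor of 200 the Fos ratio was -0.16, since its 24 h signal was below that floor, and with the mean of its probe sets it was -0.36. The second set of Fos was below the floor on both arrays, so it could only draw that mean toward no difference. Junb had a ratio of 0.28, Jun and Egr1 each 0.13, and Ier2 -0.0025. In all, 1 of 8 genes passed 1.5-fold, Fos, where 10.0% of all genes did, 5.49% being higher and 4.51% lower. A count of 1 of 8 is near that share and is not read as a result. At 2-fold it was 0 of 8, where 2.33% of all genes passed, 1.27% being higher and 1.06% lower. The median was 0.15, against 0.01 over all genes. The comparisons of 3 h and of 24 h with adrenalectomized share the adrenalectomized array, so its error enters both.

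Set directly against 3 h, the 24 h array showed 3 genes at least 1.5-fold lower and 0 higher, where 11.6% of all genes passed 1.5-fold, 5.76% being higher and 5.88% lower. None reached 2-fold, which 3.28% of all genes did, 1.32% being higher and 1.96% lower. Zfp36 was 1.99-fold lower (log2 ratio -0.99), Fos 1.88-fold (-0.91) and Nr4a1 1.75-fold (-0.81). These were 3.22, 2.97 and 2.64 times the error SD of 0.31. The Fos ratio was -0.35 with a floor of 200 and -0.46 with the mean of its probe sets, short of 1.5-fold in both, which left 2 genes. Its second set, below the floor on both arrays, could only draw that mean toward no difference. With median scaling or quantile normalization 4 genes passed. Atf3 was 1.48-fold lower, just inside the limit, and Jun, Junb, Ier2 and Egr1 had ratios from -0.17 to 0.17. Fos differed from the other 2 in its start. It was near its adrenalectomized level at 3 h and below it at 24 h, whereas Zfp36 and Nr4a1 were high at 3 h and near it at 24 h. The Fos ratios of 24 h to adrenalectomized, to 3 h and to intact share its 24 h signal, so they are not separate results.

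**Figure D3:**
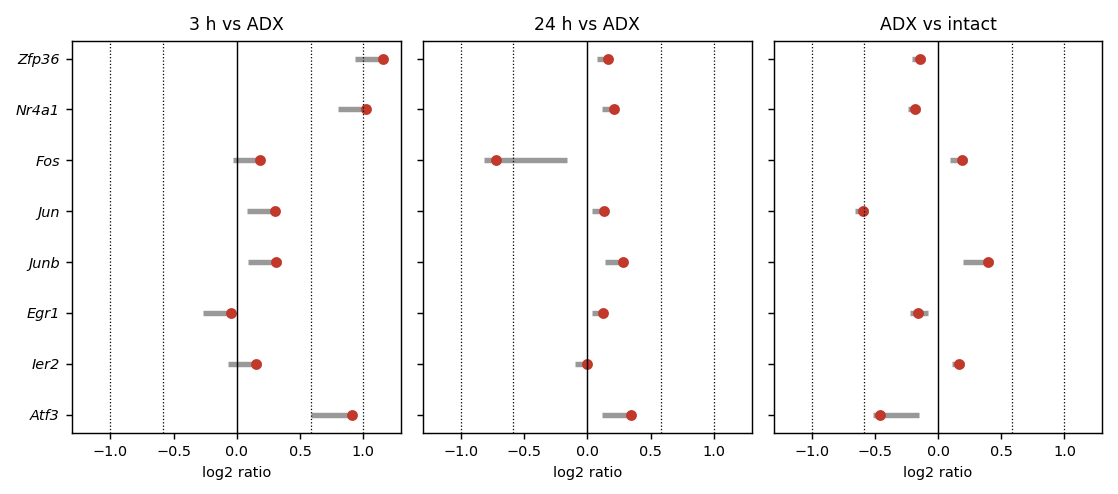
Log2 ratio of each measured gene in the 3 comparisons with or of the adrenalectomized array (ADX): red points show the value reported and grey bars the lowest to highest value over the alternative settings. Zfp36 and Nr4a1 stay above 0.80 at 3 h in every setting tried, while the Fos bar at 24 h spans -0.82 to -0.16.

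Adrenalectomized against intact mice asked what removal of the adrenal glands, the source of corticosterone, did to these genes. Jun alone passed 1.5-fold. Jun was 1.51-fold lower, a log2 ratio of -0.59 and 2.49 times the error SD of 0.24, and 2.11% of genes were at least as low. It ranged from -0.65 to -0.55 over the settings, on both sides of the 1.5-fold limit. Junb was 1.32-fold higher (0.40, 1.65 times the error SD), and 0.20 with the mean of its probe sets. Atf3 was 1.37-fold lower (-0.46, 1.92 times the error SD), and -0.15 with the mean of its sets. The other sets of Junb and Atf3 were below the floor on both arrays, so they could only draw these means toward no difference. Zfp36 and Nr4a1 had ratios of -0.15 and -0.18, inside the error SD, as were Fos at 0.19, Ier2 at 0.17 and Egr1 at -0.16. In all 1 of 8 genes passed 1.5-fold, Jun, where 4.91% of all genes did, 2.67% being higher and 2.24% lower. A count of 1 is not read as a result. None reached 2-fold, which 0.720% of all genes did. The median was -0.15 against 0.01 over all genes.

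Against intact mice, 3 genes were at least 1.5-fold higher at 3 h, where 9.95% of all genes passed that limit, 5.70% being higher and 4.25% lower. They were Zfp36 at 2.01-fold, Nr4a1 at 1.79-fold and Junb at 1.63-fold. At 2-fold 2.87% of all genes passed, 1.83% being higher and 1.04% lower. Atf3 was 1.37-fold higher there, its intact level being above its adrenalectomized one. At 24 h 1 of 8 passed, Junb at 1.60-fold, where 9.99% of all genes did, 5.95% being higher and 4.04% lower. That count is near the share of all genes. None of the 8 reached 2-fold, which 2.12% of all genes did, 1.11% being higher and 1.01% lower. Zfp36 and Nr4a1 were then level with intact mice, with ratios of 0.02 and 0.03, while Fos was 1.45-fold and Jun 1.38-fold lower. With the mean of its probe sets Junb had ratios of 0.35 at 3 h and 0.34 at 24 h, both short of 1.5-fold. Its second set was below the floor on every array, so it could only draw that mean toward no difference. Both Junb calls share its intact signal, so they are not separate results.

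Ranked by level over the 4 arrays, Zfp36 and Nr4a1 ran 3 h, 24 h, intact, adrenalectomized, and only the first step, 0.99 and 0.81 on the log2 scale, exceeded the error SD of its comparison. Atf3 ran 3 h, intact, 24 h, adrenalectomized, with steps of 0.45 and 0.34 beyond the error SD at either end and 0.12 within it between intact and 24 h. Fos ran 3 h, adrenalectomized, intact, 24 h, and only the last step, 0.53, was beyond the error. Jun ran intact, 3 h, 24 h, adrenalectomized, with the first step, 0.29, just beyond it. Junb ran 3 h, 24 h, adrenalectomized, intact, with the last step, 0.40, beyond it. For Ier2, as for Egr1, no step was. Passing the error SD is not a test, so these orders are descriptions. The 3 h array was thus the highest for Zfp36, Nr4a1, Atf3, Fos, Junb and Ier2, but not in every setting. Under ribosomal protein scaling the 3 h ratio to adrenalectomized was -0.03 for Fos and -0.07 for Ier2. Over the settings the Junb ratio of 24 h to 3 h reached 0.10.

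The genes with the most similar course were searched among 5451 genes at or above the floor on all 4 arrays, by the root mean square difference of centred log2 signals. Such a search over 4 arrays always returns some close genes, so the names are a description. Nr4a1 was the second nearest gene to Zfp36 (0.071), after the potassium channel gene Kcnj12 (0.069) and before Net1 (0.076). Kcnj12 was also nearest to Nr4a1 (0.034), followed by Avpi1 (0.036) and Lrrc58 (0.065). Kcnj12 read 374 after adrenalectomy, 786 at 3 h, 453 at 24 h and 418 in intact mice. It thus shared the 3 h peak of both genes. Atf3 stood 33rd from Nr4a1 (0.15) and 62nd from Zfp36 (0.21), and its own nearest genes were Wsb1 (0.055), the cell cycle inhibitor gene Cdkn1a (0.077) and Rab10os (0.084). Cdkn1a read 332, 554, 411 and 406 in the order of the arrays.

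Fos lay far from these, with Pard6a (0.018), Cdh13 (0.024) and Sri (0.028) nearest. Pard6a read 236 after adrenalectomy, 269 at 3 h, 145 at 24 h and 213 in intact mice, with the low 24 h value seen in Fos. The nearest to Jun were Dct (0.032), Mrtfa (0.038) and Emd (0.051). Mrtfa encodes a coactivator of serum response factor, a main regulator of immediate early genes, and read 451 after adrenalectomy, 588 at 3 h, 528 at 24 h and 717 in intact mice. The nearest to Junb were Pxk (0.016), Rangrf (0.035) and Atg7 (0.037). Fos and Jun, which dimerize, were 0.38 apart and not near each other by this measure.

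**Figure D4:**
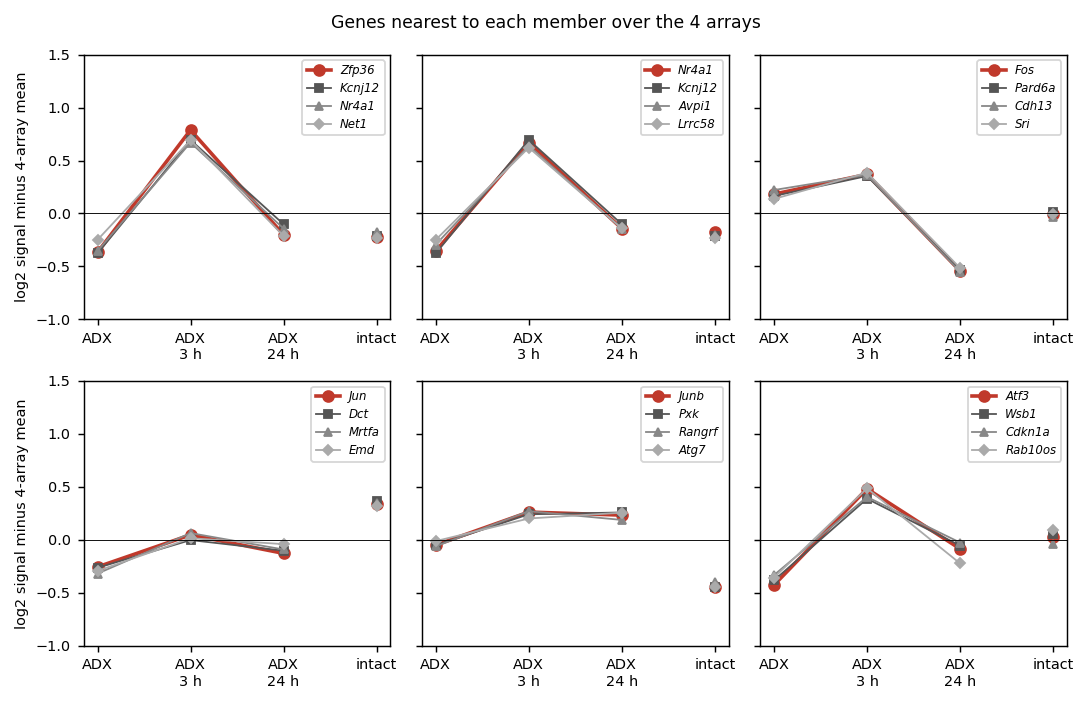
Log2 signal minus the mean of the 4 arrays for 6 of the genes (red) and the 3 genes nearest to each (grey), on the adrenalectomized (ADX), 3 h, 24 h and intact arrays, with lines joining the time series only. Zfp36, Nr4a1 and Atf3 share a peak at 3 h, Fos has its low at 24 h, and Jun and Junb stand apart in intact mice, Jun high and Junb low.

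Other immediate early genes went both ways at 3 h. Of 37 on the array, 33 reached the floor on at least 1 array. In 3 h against adrenalectomized, 9 of 32 measured were at least 1.5-fold higher and 2 lower, beside 5.07% and 4.75% of all genes. The median was 0.15, against -0.02 over all genes, and it turned to -0.07 under ribosomal protein scaling. The 5 past 2-fold were Nfkbia, an inhibitor of NF-kB, the clock gene Per1, the receptor kinase inhibitor gene Errfi1, the matricellular growth factor gene Ccn2 and the stress gene Gadd45b. Nfkbia, Per1 and Errfi1 were also on the list of glucocorticoid-induced genes.

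Ccn2 read 416 after adrenalectomy, 1019 at 3 h, 334 at 24 h and 448 in intact mice, with 3 h apart from the rest, and had a 3 h log2 ratio of 1.29. Gadd45b read 248, 589, 355 and 297, with a ratio of 1.25. Phlda1 and Rgs2 had 3 h ratios of 0.90 and 0.64, and Egr2, close kin of Egr1, read 87.5, 178, 141 and 107, which made it at least 1.78-fold higher at 3 h. Egr2 entered only through the 3 h array, so its direction was set by the filter. Btg2 (0.60) was the remaining gene past 1.5-fold. The 2 lower genes were Klf10 (-0.75) and the kinase gene Pim1 (-0.63). Klf10 read 719 after adrenalectomy, 427 at 3 h, 699 at 24 h and 766 in intact mice. Only the 3 h array was low for it.

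At 24 h 1 of 33 passed 1.5-fold against adrenalectomized, beside 10.0% of all genes. This was Ccn1, a relative of Ccn2, which read 202 after adrenalectomy, 235 at 3 h, 98.3 at 24 h and 174 in intact mice and was at least 2.02-fold lower at 24 h. Ccn1 was below the floor at 24 h, so its direction was set by the filter. Its course, low at 24 h alone, resembled that of Fos. In adrenalectomized against intact, 0 of 33 passed 1.5-fold, beside 4.91% of all genes.

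**Figure D5:**
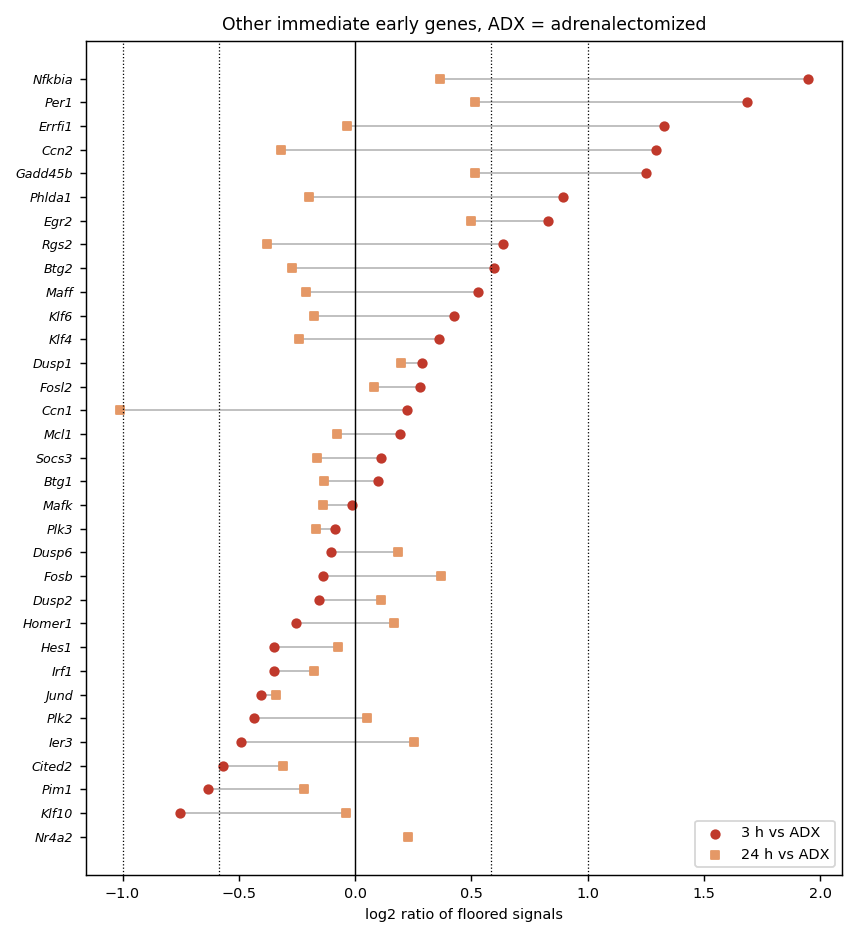
Log2 ratios of other immediate early genes at 3 h (red circles) and 24 h (orange squares) against adrenalectomized (ADX), sorted by the 3 h value, with dotted lines at 1.5-fold and 2-fold. Nfkbia, Per1, Errfi1, Ccn2 and Gadd45b lie past 2-fold at 3 h and all lie to the left of their 3 h value at 24 h; Nr4a2 was below the floor on both arrays of the 3 h comparison and has a 24 h point only.

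Partners of Fos and Jun in AP-1 and related dimers showed 0 of 13 measured past 1.5-fold in 3 h against adrenalectomized, beside 9.82% of all genes, with a median of -0.11. A count of 0 among so few is near that share. Jund, the member of the Jun family that is steadily made, read 4622 after adrenalectomy, 3495 at 3 h, 3653 at 24 h and 4298 in intact mice, with both cortisol arrays lowest. Fosb read 348, 317, 451 and 252 and Fosl2 251, 304, 265 and 319.6. Neither was lowest at 24 h, as Fos was. At 24 h 1 of 14 passed 1.5-fold against adrenalectomized, beside 10.0% of all genes. This was Creb1, which was below the floor at 34.5 after adrenalectomy and read 156 at 24 h. It entered only through the 24 h array, so its direction was set by the filter.

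In the serum response and MAP kinase pathway 2 of 19 measured genes were at least 1.5-fold higher and 1 lower at 3 h, near the 5.07% and 4.75% of all genes, with a median of 0.02. The kinase genes Map2k3 and Map2k6, both upstream of p38, had 3 h log2 ratios of 0.73 and 0.66, and Elk3, an Ets partner of serum response factor, one of -0.99. Map2k3 read 3434 after adrenalectomy, 5701 at 3 h, 4561 at 24 h and 3916 in intact mice, with both cortisol arrays highest. Elk1, the best known of these Ets partners, read 133, 135, 270 and 149. It was high at 24 h only, by 1.02 on the log2 scale against adrenalectomized. At 24 h 4 of 21 were at least 1.5-fold higher and 0 lower, beside 5.49% and 4.51% of all genes. The others were Grb2 at 0.60, and Mapk10 and Creb1, which were below the floor after adrenalectomy and had bounds of 0.64 each. Mapk10 and Creb1 entered only through the 24 h array, so their direction was set by the filter. In adrenalectomized against intact 1 of 21 passed, beside 4.91% of all genes, Mrtfa at -0.67.

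Among MAP kinase phosphatases and feedback inhibitors 1 of 8 passed 1.5-fold at 3 h, Errfi1, beside 9.82% of all genes. Dusp1, a phosphatase gene induced both by early signals and by glucocorticoids, read 2654 after adrenalectomy, 3243 at 3 h, 3044 at 24 h and 2789.9 in intact mice, a 3 h ratio of 0.29. The inhibitor gene Spry4 read 227, 151, 412 and 298. It was lowest at 3 h and highest at 24 h.

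Of 9 measured members of the Zfp36 family and of other AU-rich element binders, 0 passed 1.5-fold at 3 h or 24 h against adrenalectomized or in adrenalectomized against intact, beside 9.82%, 10.0% and 4.91% of all genes, and 0 of 9 is near those shares. Zfp36l1 read 1184 after adrenalectomy, 963 at 3 h, 1241 at 24 h and 1093 in intact mice, and Zfp36l2 read 779, 571, 599.6 and 685. Both were lowest at 3 h. Of 17 messages on the array known to be bound by Zfp36, only 4 reached the floor at 3 h or after adrenalectomy. Vegfa had a 3 h ratio of -0.90 and Ier3 one of -0.49. Cxcl1 and Ccl2 were below the floor at 3 h and entered only through the adrenalectomized array, so their direction was set by the filter and their ratios of -0.43 and -0.30 are bounds. Vegfa, a vascular growth factor gene, read 1109 after adrenalectomy, 594 at 3 h, 836 at 24 h and 1299 in intact mice.

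Other nuclear receptors of muscle had a 3 h median of -0.07 over 16 measured, with 1 at least 1.5-fold higher and 2 lower, beside 5.07% and 4.75% of all genes. Ppara, a lipid sensor, read 367 after adrenalectomy, 841 at 3 h, 367 at 24 h and 426 in intact mice, a course like that of Nr4a1. The clock repressor gene Nr1d1 read 1981, 958, 2670.2 and 2396, with 3 h alone low. Nr3c1, the glucocorticoid receptor, had a 3 h ratio of -0.66. Nr4a2, the close relative of Nr4a1, read 56.8, 41.5, 117 and 108 and was below the floor on the first 2 arrays. Of 14 genes reported as Nr4a1 targets in muscle 1 was higher, Ucp3 (0.73), and 1 lower, Fbp2 (-0.61), again beside 5.07% and 4.75% of all genes, with a median of -0.0049. Ucp3, a mitochondrial uncoupler gene, read 1041, 1728, 709.9 and 969. Slc2a4, which encodes the insulin-responsive glucose transporter, had a ratio of 0.05. Ampd3 was the 1 of 14 past 1.5-fold at 24 h, beside 10.0% of all genes, with a ratio to adrenalectomized of -0.84.

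Of the genes of the integrated stress response, in which Atf3 takes part, 2 of 17 measured were at least 1.5-fold higher and 1 lower at 3 h, near the 5.07% and 4.75% of all genes, with a median of -0.02. The higher ones were Ddit4 and Cebpb, both on the list of glucocorticoid-induced genes too. Ddit3, which encodes the stress factor CHOP, read 298 after adrenalectomy, 118 at 3 h, 310.0 at 24 h and 247 in intact mice. It was thus low on the array where Atf3 was high, and Atf4, the factor above both, read 3778, 3742, 4318 and 4170.1. Among heat shock and acute stress genes 3 of 14 were at least 1.5-fold higher and 0 lower, beside the same shares of all genes, Mt1, Mt2 and Hspa1b. Mt1 and Mt2 were also on the list of glucocorticoid-induced genes. Hspa1a was 1.22-fold higher at 3 h than after adrenalectomy and Cryab 1.18-fold lower, both short of 1.5-fold. Hspa1b, a heat shock protein gene that also responds to tissue stress, read 331, 607, 338 and 386, and the median of 0.17 turned to -0.05 under ribosomal protein scaling. Of 11 hypoxia genes 1 was higher, Ndrg1 (0.84), and 1 lower, Vegfa, beside 5.07% and 4.75% of all genes. The glucose transporter gene Slc2a1 was the 1 that passed at 24 h, at least 2.08-fold lower than after adrenalectomy, beside 10.0% of all genes. It was also the 1 in adrenalectomized against intact, 1.74-fold higher, beside 4.91% of all genes. Both calls share its adrenalectomized signal of 208, so they are not separate results. At 24 h it was below the floor, so its direction there was set by the filter.

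Around Myc, which was itself below the floor, 1 of 7 measured network genes was at least 1.5-fold higher at 3 h and 1 lower, beside 5.07% and 4.75% of all genes. Mxd4, which encodes a rival of Myc for the partner Max, read 1086 after adrenalectomy, 1662 at 3 h, 990.0 at 24 h and 1008 in intact mice. Zbtb17, a zinc finger factor to which Myc binds, read 561, 134, 139 and 379, so both cortisol arrays were low. Max read 441, 571, 354 and 443. Of 30 Myc target genes 1 was higher, Cad (0.80), and 1 lower, Ccnd2 (at least 1.72-fold), near the 5.07% and 4.75% of all genes. The median of the Myc target genes was -0.01. Ccnd2 was below the floor at 3 h, so its direction was set by the filter. At 24 h against adrenalectomized 1 of 30 was higher, Polr1b at 0.61, and 2 were lower, Mcm5 at -0.80 and Eif4e at -0.71, beside 5.49% and 4.51% of all genes. In adrenalectomized against intact 1 of 30 was higher, Eif4e at 0.59, and of the 7 network genes 1 was lower, Mxd3 at -0.67. Of all genes 2.67% were higher and 2.24% lower there, so counts of 1 are not read as a result. Both Eif4e calls share its adrenalectomized signal.

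Set beside these, the list of glucocorticoid-induced genes, which holds Zfp36, had 20 of 29 at least 1.5-fold higher at 3 h and 1 lower, beside 5.07% and 4.75% of all genes, with a median of 1.04 against -0.02. The list was chosen with earlier results of these data known, so its count and median are not independent of them. Zfp36 stood near that median, which includes it, and Nr4a1 and Atf3, which are not on the list, had ratios of similar size. The other 5 measured genes, from Egr1 at -0.05 to Junb at 0.31, lay well below it.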

How the data were processed

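The authors deposited 1 intensity per probe set and array, made with MAS 5.0 per the labels. The scaling settings used are not stated here, since no source gives them. Deposited intensity columns had trimmed means between 498.7 and 498.9 after leaving out 2% at each end, and they were used at a trimmed mean of 500. Of 12488 probe sets, 66 controls were left out. Symbols came from the platform annotation: 10833 probe sets had 1 symbol, 396 several and 1193 none, and only the first were named. Each gene was read from its brightest probe set, by the mean over the 4 arrays. Signals under 100 were set to 100 before log2 ratios were taken, so a fold against an array below that floor is a lower bound.

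With 1 array per group no test was possible. Genes were counted past 1.5-fold and 2-fold in 6 comparisons. For the error SD, log2 ratios of 2 probe sets of the same gene were subtracted, and the SD of these differences was divided by the square root of 2. The ratio step was tested on simulated data. The named genes were the members, list genes past 2-fold in any comparison with up to 4 more per list by the size of their 3 h ratio to adrenalectomized, and the 3 genes nearest to each member that spanned 1.5-fold. Atf4, Creb1, Eif4e, Fosb, Mapk10, Nr4a2 and Polr1b fall outside that rule and were chosen after their values were seen. The members and lists were chosen with earlier results of these data known. Floor, pseudocount, probe set rule and scaling were varied. Python 3.11.15, numpy 2.4.6, pandas 2.3.3 and matplotlib 3.10.9 were used.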

Additional observations from a re-analysis of the deposited data

How the results depend on the processing

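The 3 h ratios of Zfp36, Nr4a1 and Atf3 to adrenalectomized kept their direction and stayed past 1.5-fold in the settings tried, from 0.94 to 1.18, from 0.80 to 1.05 and from 0.59 to 0.94 on the log2 scale. At its lowest, with the mean of its probe sets, Atf3 only just passed. That mean includes the set that entered only through the 3 h array. Zfp36 and Nr4a1 were both under 2-fold with ribosomal protein scaling. Other counts of members past 1.5-fold lay between 2 and 4 in 24 h against 3 h and between 2 and 3 in 3 h against intact, and the rest moved as follows. In 24 h against adrenalectomized it was 0 with a floor of 200 and 0 with the mean of all probe sets, and in 24 h against intact 0 with each of these and 2 with quantile normalization, with ribosomal protein scaling and with median scaling. In adrenalectomized against intact it was 0 with a pseudocount of 16 and 0 with ribosomal protein scaling. The second sets of Fos and Junb were below the floor throughout, so the mean of all probe sets could only draw their ratios toward no difference. Counts over all genes followed the floor and are given for 3 h against adrenalectomized, 24 h against adrenalectomized, adrenalectomized against intact, 24 h against 3 h, and then for the 3 h and the 24 h array against intact, in that order. With a floor of 50, 371, 354, 193, 411, 370 and 348 genes passed 2-fold and 1024, 1077, 700, 1155, 1050 and 1082 passed 1.5-fold. With a floor of 200, 102, 43, 11, 89, 101 and 51 passed 2-fold and 330, 292, 112, 383, 337 and 281 passed 1.5-fold. With a pseudocount of 16, 292, 289, 147, 339, 310 and 286 passed 2-fold. With both arrays at the floor or above, 82 passed 2-fold in 24 h against adrenalectomized, 28 in adrenalectomized against intact and 83 in 24 h against intact. The share of 2-fold calls that were higher was 40.2% in 24 h against 3 h and 51.9% under ribosomal protein scaling, 63.8% in 3 h against intact and 45.3% under that scaling, and 52.3% in 24 h against intact, with 39.2% under median scaling and 41.0% under quantile normalization. With a floor of 200 that share was 27.0% in 24 h against 3 h, 39.5% in 24 h against adrenalectomized (54.5% with the floor of 100), 37.3% in 24 h against intact and 36.4% in adrenalectomized against intact (47.7%), so the majority turned from higher to lower for 24 h against adrenalectomized and against intact. Ribosomal protein scaling moved the all-gene median to 0.16 in 24 h against 3 h and to -0.19 in 3 h against intact. List medians that changed sign were those of other immediate early genes at 3 h (-0.065) and heat shock genes at 3 h (-0.048) under ribosomal protein scaling, messages bound by Zfp36 in adrenalectomized against intact with a floor of 50 (-0.039), and Myc targets in that comparison under median scaling (-0.000584). List counts past 1.5-fold also depended on the setting. Over comparisons and settings, that of Fos and Jun partners moved in 11 cases and stayed in 25. For Myc targets it moved in 10 and stayed in 26, and for other immediate early genes it moved in 7 and stayed in 29. The count of glucocorticoid-induced genes stayed in all 36, and their median moved in 1. Beyond what the settings themselves change, the cause was not tested. No paired analysis was possible because each group has 1 array and the labels carry no replicate numbers. For the same reason no array could be left out of a group. Signals near the floor, as for Myc and the second probe sets of Fos, Junb and Egr1, limit what can be read.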
